A study of Mus musculus with 10 samples.

Results

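Ceramide and barrier lipid synthesis is described here by 36 genes, chosen by name for their known part in making, modifying and breaking down ceramides and very long chain fatty acids of the epidermis. All 36 have a row among the 19175 genes of the table. The rule goes by gene name, and the genes were chosen with earlier results of these data known. The tissue was skin, the strain C57BL/6 and the model MC903, in which MC903 (calcipotriol, a vitamin D analogue) put on the skin causes an itchy, type 2 dermatitis. The series compares 5 samples with the genotype label basophils VAMP7 CKO and the treatment label CKO (a conditional knockout) with 5 that carry the genotype label basophils VAMP7 Flox and the treatment label WT. All 10 share the strain and the MC903 model, and none is labelled as untreated skin. No source used here gives the Cre driver, the age of the mice or the time of sampling. Whether each sample is 1 animal is not stated either, and p-values therefore cover the spread among these samples, which may be technical.

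The water barrier of the skin is a layered lipid film of ceramides, cholesterol and free fatty acids between the dead cells of the cornified layer. Ceramides start from serine and palmitoyl-CoA, gain a fatty acid from a ceramide synthase and are stored as glucosylceramide or sphingomyelin until the keratinocyte cornifies. Acylceramides, which carry an ultra-long, omega-hydroxylated fatty acid joined to linoleate, are special to the epidermis, and several genes of their synthesis are mutated in human ichthyosis. Sebaceous glands, which open into hair follicles, also make very long chain and hydroxylated lipids and use some of the same enzymes.

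FPKM, fragments per kilobase of transcript scaled to the mapped reads of a library, added up to 525369 to 581022 in a library. A filter of 1 FPKM or more in 5 or more libraries left 13186 genes for limma on log2(FPKM + 1), where folds of low genes are understated. All 36 barrier lipid genes passed that filter. The targeted Vamp7 was at 17.3 to 19.2 FPKM across CKO and 18.1 to 22.5 across Flox, with a log2 fold change of -0.088 (limma adjusted p = 0.530), in whole skin rather than sorted basophils. Summed markers of basophils, 8 genes, were at 284 to 309 FPKM across CKO and 430 to 537 across Flox, and 3 of them passed as lower (Cd200r3, Itga2b and Gata2). Over all genes tested 0.0607% passed as lower. Groups did not overlap for 6 of the 8, all lower in CKO, against 3% of all genes. Mcpt8 was at 26.9 ± 14.7 FPKM for CKO against 139 ± 17.6 for Flox (limma adjusted p = 0.0507). Cpa3, the highest of the 8 by mean, was at 197 ± 11.9 FPKM for CKO against 204 ± 38.1 for Flox. Keratinocyte markers, which check the labelled tissue, were high in all libraries (11 suprabasal genes summed to 2538 to 4454 FPKM), while 8 hair follicle markers summed to 1.42 to 4.37 FPKM, with 5 of them at 0 in 1 or more libraries. In whole skin, fewer cells of a type and less RNA per cell cannot be told apart.

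No barrier lipid gene passed the test between CKO and Flox. Over all genes tested 14 passed (0.106%, limma adjusted p under 0.05), of which 6 (0.0455%) were higher and 8 (0.0607%) lower in CKO. The lowest adjusted p of a barrier lipid gene was 0.129, for the glucosylceramidase gene Gba2. At an unadjusted p under 0.05 there were 4 barrier lipid genes, 2 higher (Sgms1 and Sgms2) and 2 lower (Gba2 and Smpd3) in CKO. That is 11.1% of the 36, against 15.1% of all genes tested (4.78% higher and 10.3% lower), so the share was not above the background in this fit. The groups did not overlap for Gba2 alone, 2.78% of the 36 genes against 4.23% of all genes (1.24% higher and 3% lower). The median log2 fold change of the 36 genes was -0.051 and that of all genes tested -0.027, and 25 of the 36 were negative (69.4%, against 60.5% of all genes). Without Flox replicates 1 and 2, 15 of the 35 genes still tested were negative. This fit was chosen after those 2 libraries were seen to be the highest for 14 of the 36 genes. Leaving them out by itself raises the fold changes of these genes. The median over all genes tested was -0.031 in that fit. In the fit of all 10 libraries, the 95% confidence interval of the fold change lay inside 1.5-fold in either direction for 27 genes. It lay inside 2-fold for 35 of the 36. These intervals are on log2(FPKM + 1), which understates folds of low genes. The log2 fold change of Fads6 was -0.11 here and -0.19 with a pseudocount of 0.1. The gene whose interval reached past 2-fold was the elongase Elovl3.

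Counts moved with single libraries. Over all genes tested, 0 passed in either direction without any 1 of Flox replicates 1, 2, 3 and 5, and 11 higher and 15 lower passed without CKO replicate 1. The count was 8 and 1 without CKO replicate 2, 1 and 4 without CKO replicate 3 or 5, 1 and 2 without CKO replicate 4, and 4 and 1 without Flox replicate 4. For the barrier lipid genes at an unadjusted p under 0.05, there were 1 higher and 4 lower without CKO replicate 5, without Flox replicate 4 1 and 5, and without Flox replicate 5 2 and 5. In either direction this was 6 of the 36 genes without Flox replicate 4, against 13.4% of all genes tested. Without Flox replicate 5 it was 7 of the 36, against 13.8%. These shares were above the background, and those of the other fits with 1 library left out were below it. Without CKO replicate 1 there were 2 higher and 1 lower. Without any 1 of CKO replicates 2 and 3 or Flox replicates 1, 2 and 3 there was 1 in each direction. No barrier lipid gene passed over all genes in any of these fits.

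**Figure D1:**
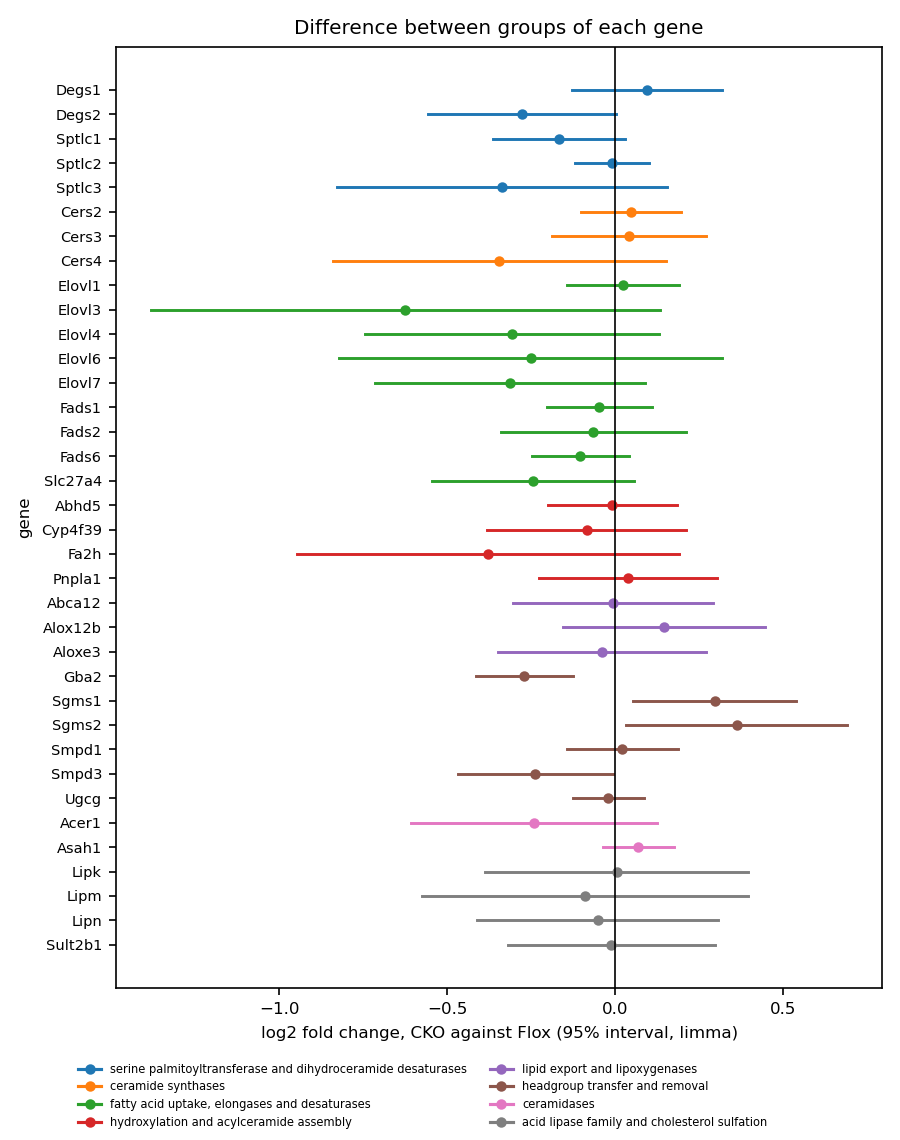
Log2 fold change of each of the 36 genes, CKO against Flox, on the horizontal axis, with the 95% confidence interval from limma as a line and genes coloured by role. The intervals of Gba2, Sgms1, Sgms2 and Smpd3 leave out 0, that of Elovl3 is the widest (-1.38 to 0.13), and no gene passed the adjusted test.

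Serine palmitoyltransferase, the entry enzyme, pairs the SPTLC1 subunit with SPTLC2 or SPTLC3. Sptlc1 was at 27.6 to 34.0 FPKM across CKO and 30.8 to 40.5 across Flox and Sptlc2 at 20.4 to 22.8 FPKM across CKO and 20.1 to 23.2 across Flox, and Sptlc1 was above Sptlc2 in every library. Sptlc3, whose subunit accepts a wider range of acyl-CoA chain lengths, was at 8.37, 9.38, 6.24, 5.80 and 9.87 FPKM across CKO replicates 1 to 5 and 13.7, 16.0, 7.99, 7.74 and 7.52 across Flox replicates 1 to 5. Its highest values were those of Flox replicates 1 and 2, and the other 3 Flox values lay within the CKO range. The log2 fold change was -0.34 ± 0.22 SE, with a 95% confidence interval of -0.83 to 0.15. Sptlc3 made up 10.5% to 14.9% across CKO and 12.0% to 20.9% across Flox of the summed FPKM of the 3 subunit genes, and Sptlc1 50.0% to 52.8% across CKO and 50.3% to 53.8% across Flox. The log2 fold changes of Sptlc1 and Sptlc2 were -0.17 ± 0.089 SE and -0.0098 ± 0.050 SE.

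Dihydroceramide desaturases finish the ceramide backbone. Degs1, the general desaturase, was at 109.6, 77.0, 73.7, 81.6 and 88.4 FPKM across CKO replicates 1 to 5 and 86.2, 79.3, 79.6, 71.2 and 82.8 across Flox replicates 1 to 5. CKO replicates 1 and 5 lay above every Flox value and the other 3 inside the Flox range (log2 fold change 0.095 ± 0.10 SE). Degs2, which also makes the phytoceramides that are common in epidermis, was at 20.7, 20.1, 18.7, 18.6 and 22.7 FPKM across CKO replicates 1 to 5 and 32.6, 27.1, 25.4, 20.7 and 19.2 across Flox replicates 1 to 5. All 5 CKO values lay below the 3 highest Flox values, and the groups overlapped through Flox replicates 4 and 5 (log2 fold change -0.28 ± 0.13 SE, 95% confidence interval -0.56 to 0.0027, limma adjusted p = 0.337). Degs2 gave 15.9% to 20.7% across CKO and 18.8% to 27.5% across Flox of the summed FPKM of the pair.

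Of the ceramide synthases, which choose the length of the fatty acid, Cers2 was the most abundant. It was at 50.9 to 59.3 FPKM across CKO and 45.6 to 56.7 across Flox and gave 59.0% to 66.8% across CKO and 48.1% to 68.7% across Flox of the summed FPKM of the 3 synthase genes. That sum leaves out Cers5, which is not among the 36 genes. Its mean of 29.4 FPKM for CKO and 35.4 for Flox was above those of Cers3 and Cers4. Cers3, the synthase of ultra-long chain ceramides that the epidermal barrier needs, was at 18.4, 15.0, 13.7, 16.6 and 16.4 FPKM across CKO replicates 1 to 5 and 18.3, 17.5, 15.6, 13.1 and 13.5 across Flox replicates 1 to 5. The 2 groups covered nearly the same range (log2 fold change 0.040 ± 0.10 SE, 95% confidence interval -0.19 to 0.27). Cers4, a synthase found in skin appendages, was at 16.6, 16.6, 13.6, 12.0 and 20.3 FPKM across CKO replicates 1 to 5 and 25.2, 31.7, 19.8, 16.4 and 12.4 across Flox replicates 1 to 5, again highest in Flox replicates 1 and 2. Its log2 fold change was -0.35 ± 0.22 SE, and its share of the 3 genes was 15.1% to 22.7% across CKO and 15.0% to 33.4% across Flox.

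Elongases extend fatty acids to very long chains. Elovl4, the enzyme of ultra-long chains for acylceramide, was at 145, 140.5, 116, 114 and 166 FPKM across CKO replicates 1 to 5 and 214, 253, 141, 138 and 124 across Flox replicates 1 to 5, a mean above that of 96.0% of the genes tested. Flox replicates 1 and 2 stood above every other library and the remaining 3 Flox values lay inside the CKO range (log2 fold change -0.31 ± 0.20 SE, 95% confidence interval -0.74 to 0.13). Elovl3, which makes saturated and monounsaturated very long chains in sebaceous gland and brown fat, was at 15.8, 26.8, 16.1, 12.0 and 26.9 FPKM across CKO replicates 1 to 5 and 41.8, 55.1, 25.4, 25.2 and 14.2 across Flox replicates 1 to 5. Its highest and lowest libraries differed 4.61-fold, the widest span of the 36 genes. The log2 fold change of Elovl3 was -0.62 ± 0.34 SE (limma adjusted p = 0.423), -0.40 without Flox replicate 2 and -0.87 without Flox replicate 5.

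The same libraries led for the other long chain genes. Elovl6, which extends palmitate, was at 35.1, 26.0, 23.6, 26.5 and 39.0 FPKM across CKO replicates 1 to 5 and 46.8, 63.2, 28.0, 28.2 and 23.3 across Flox replicates 1 to 5. Elovl7 was at 15.1 to 22.1 FPKM across CKO and 18.4 to 35.2 across Flox, and Slc27a4, a fatty acid transporter and acyl-CoA synthetase of the epidermis, at 21.9 to 33.2 FPKM across CKO and 25.6 to 40.2 across Flox. In each of these 3 genes Flox replicates 1 and 2 were the 2 highest of 10, and the log2 fold changes were -0.25 ± 0.26 SE, -0.31 ± 0.18 SE and -0.24 ± 0.14 SE. Elovl1, the broad elongase of very long chains, did not follow them, at 77.7 to 95.1 FPKM across CKO and 71.8 to 92.9 across Flox, its log2 fold change being 0.023 ± 0.076 SE with a 95% confidence interval of -0.14 to 0.19. Within the summed FPKM of the 5 elongase genes Elovl4 took 45.7% to 48.9% across CKO and 47.2% to 51.6% across Flox, and Elovl1 25.3% to 31.6% across CKO and 17.1% to 31.6% across Flox, lowest in Flox replicate 2. Among the fatty acid desaturases, Fads1 was at 15.6 to 19.7 FPKM across CKO and 16.8 to 20.1 across Flox, Fads2 at 4.25 to 7.32 FPKM across CKO and 5.94 to 7.92 across Flox and Fads6, a relative of the same family, at 0.900 to 1.14 FPKM across CKO and 0.950 to 1.28 across Flox, with log2 fold changes of -0.048 ± 0.071 SE, -0.065 ± 0.12 SE and -0.11 ± 0.065 SE.

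**Figure D2:**
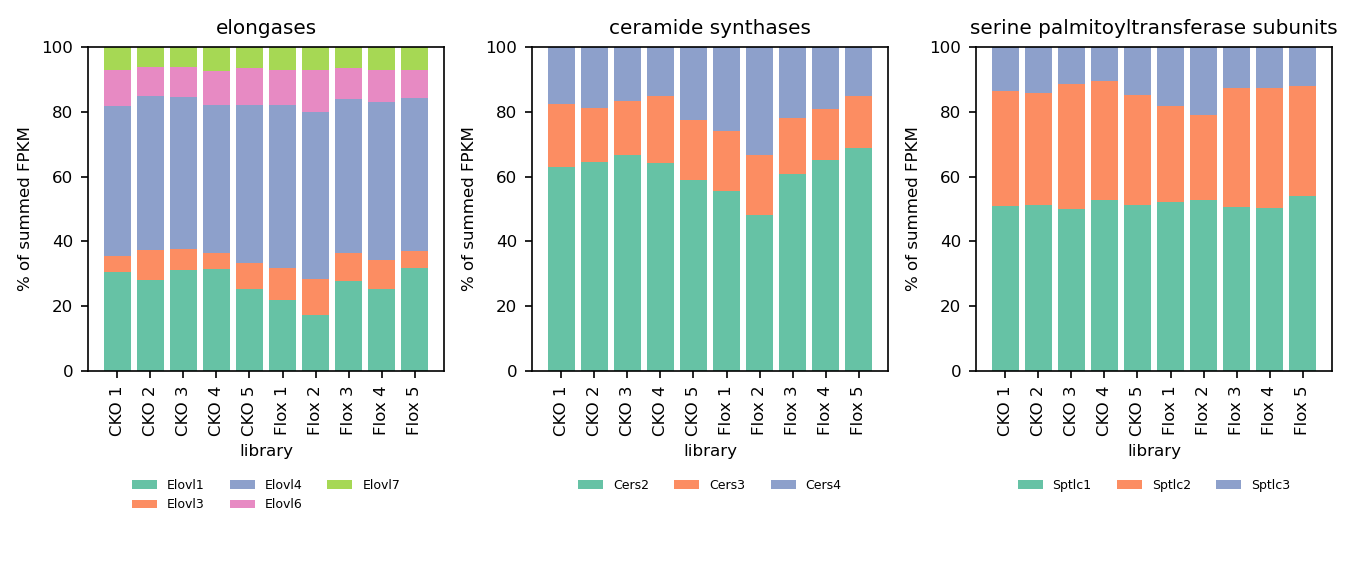
Share of the summed FPKM (vertical axis, percent) that each gene takes within the elongases, the ceramide synthases and the serine palmitoyltransferase subunits, 1 bar per library. Elovl4 and Cers2 take the largest parts, and Cers4 and Sptlc3 are widest in Flox replicates 1 and 2.

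Promoter sequences are shown for 4 genes, Gba2 as the gene of lowest p and Elovl4, Elovl6 and Sptlc3 as genes that were highest together in Flox replicates 1 and 2. They span 250 bases before to 50 after the RefSeq gene start, 5′ to 3′ on the gene's strand, in build GRCm38.p6, and 29 of the 36 genes had such an entry. Capitals mark matches on either strand to the GC box GGGCGG, the CCAAT box and the nuclear receptor half-site AGGTCA, which 35.7%, 37.4% and 16.3% of 32851 promoters of the same length contain.
Gba2, chr4:43578815-43579114, minus strand: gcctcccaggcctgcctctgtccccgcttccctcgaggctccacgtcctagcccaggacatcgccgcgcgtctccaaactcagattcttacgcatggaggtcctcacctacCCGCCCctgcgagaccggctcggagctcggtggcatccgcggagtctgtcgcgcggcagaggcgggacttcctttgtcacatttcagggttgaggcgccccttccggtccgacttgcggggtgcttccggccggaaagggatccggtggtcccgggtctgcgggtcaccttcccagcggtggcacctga
Elovl4, chr9:83806256-83806555, minus strand: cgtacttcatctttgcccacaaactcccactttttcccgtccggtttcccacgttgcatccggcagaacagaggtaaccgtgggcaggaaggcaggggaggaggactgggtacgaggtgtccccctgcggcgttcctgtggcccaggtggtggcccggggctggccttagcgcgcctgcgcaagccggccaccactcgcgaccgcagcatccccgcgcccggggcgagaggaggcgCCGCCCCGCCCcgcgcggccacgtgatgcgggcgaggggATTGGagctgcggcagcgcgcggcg
Elovl6, chr3:129532136-129532435, plus strand: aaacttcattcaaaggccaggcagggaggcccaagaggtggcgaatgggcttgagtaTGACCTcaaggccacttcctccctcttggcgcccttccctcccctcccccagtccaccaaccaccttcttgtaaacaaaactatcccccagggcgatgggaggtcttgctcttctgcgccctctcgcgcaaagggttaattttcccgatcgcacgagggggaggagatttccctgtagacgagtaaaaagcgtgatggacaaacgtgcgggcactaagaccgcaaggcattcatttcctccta
Sptlc3, chr2:139493663-139493962, plus strand: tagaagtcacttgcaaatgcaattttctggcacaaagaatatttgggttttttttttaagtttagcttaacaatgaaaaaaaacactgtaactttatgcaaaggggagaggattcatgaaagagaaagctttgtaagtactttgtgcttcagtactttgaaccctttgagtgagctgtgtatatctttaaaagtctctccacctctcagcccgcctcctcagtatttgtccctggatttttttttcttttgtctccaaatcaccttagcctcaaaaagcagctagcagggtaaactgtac
All matches are on the reverse strand. The Gba2 window holds 1 GC box, the Elovl4 window 2 overlapping GC boxes and 1 CCAAT box, the Elovl6 window 1 nuclear receptor half-site, and the Sptlc3 window none of these letters.

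Hydroxylation and acylceramide assembly come next in the route. Fa2h, the fatty acid 2-hydroxylase of differentiating keratinocytes and sebocytes, was at 25.3, 26.9, 24.8, 16.8 and 35.6 FPKM across CKO replicates 1 to 5 and 46.4, 52.7, 28.8, 25.8 and 21.6 across Flox replicates 1 to 5. Flox replicates 1 and 2 were again highest and CKO replicate 4 lowest (log2 fold change -0.38 ± 0.26 SE, 95% confidence interval -0.95 to 0.19). Cyp4f39, the mouse counterpart of the human omega-hydroxylase CYP4F22, was at 15.2, 12.2, 9.98, 11.4 and 12.8 FPKM across CKO replicates 1 to 5 and 16.1, 15.8, 12.5, 10.4 and 11.3 across Flox replicates 1 to 5. The ranges of the groups were close and the log2 fold change was -0.086 ± 0.13 SE. Pnpla1, the transacylase that joins linoleate to the ceramide, was at 6.76, 5.78, 4.81, 5.21 and 6.63 FPKM across CKO replicates 1 to 5 and 6.56, 5.64, 6.69, 4.19 and 5.35 across Flox replicates 1 to 5. Its lowest value was in Flox replicate 4 and its highest in CKO replicate 1, the log2 fold change being 0.037 ± 0.12 SE with a 95% confidence interval of -0.23 to 0.30. Abhd5, the lipase co-activator that supplies linoleate to PNPLA1, was at 31.4 to 40.9 FPKM across CKO and 31.0 to 40.8 across Flox (log2 fold change -0.0093 ± 0.087 SE).

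The FPKM of genes for export and oxidation of acylceramide varied between libraries of both groups alike. Abca12, the transporter that loads glucosylceramide into lamellar granules, was at 12.1, 9.28, 7.74, 8.84 and 11.1 FPKM across CKO replicates 1 to 5 and 12.3, 10.1, 10.7, 7.63 and 8.63 across Flox replicates 1 to 5. Its lowest values, in Flox replicate 4 and CKO replicate 3, came from different groups, and the log2 fold change was -0.0072 ± 0.14 SE with a 95% confidence interval of -0.31 to 0.29. Alox12b, the 12R-lipoxygenase that starts the oxidation of the linoleate, was at 28.1, 25.4, 20.5, 21.9 and 28.0 FPKM across CKO replicates 1 to 5 and 28.8, 20.1, 25.6, 17.7 and 20.1 across Flox replicates 1 to 5. Aloxe3, the hydroperoxide isomerase that acts after it, was at 9.89, 6.34, 5.90, 7.36 and 7.15 FPKM across CKO replicates 1 to 5 and 9.31, 8.09, 7.92, 5.71 and 6.69 across Flox replicates 1 to 5. Both were lowest in Flox replicate 4, and CKO replicate 1 and Flox replicate 1 held the 2 highest values of each; their log2 fold changes were 0.15 ± 0.14 SE and -0.040 ± 0.14 SE. Alox12b gave 74.0% to 80.0% across CKO and 71.3% to 76.4% across Flox of the summed FPKM of the pair.

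The next genes add or remove the headgroup of ceramide. Gba2, the glucosylceramidase outside the lysosome, was at 9.73, 11.0, 9.78, 10.7 and 10.3 FPKM across CKO replicates 1 to 5 and 14.7, 12.6, 12.7, 11.5 and 11.9 across Flox replicates 1 to 5. Every CKO value lay below every Flox value, a mean 1.23-fold lower in CKO, from 12.7 ± 1.22 FPKM for Flox to 10.3 ± 0.566 (SD, n = 5 in each group). The log2 fold change of Gba2 was -0.27 ± 0.065 SE with a 95% confidence interval of -0.42 to -0.13 (limma adjusted p = 0.129), and it stayed between -0.30 and -0.22 when any 1 library was left out.

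Both sphingomyelin synthase genes were on the higher side. Sgms1, the synthase of the Golgi, was at 21.1, 13.8, 15.0, 18.2 and 19.3 FPKM across CKO replicates 1 to 5 and 14.4, 14.7, 13.0, 12.3 and 15.3 across Flox replicates 1 to 5. CKO replicates 1, 4 and 5 lay above every Flox value, while CKO replicates 2 and 3 lay within the Flox range (log2 fold change 0.30 ± 0.11 SE, limma adjusted p = 0.258). Sgms2, the synthase of the plasma membrane, was at 4.29, 8.32, 6.95, 4.77 and 5.03 FPKM across CKO replicates 1 to 5 and 4.04, 3.74, 3.88, 4.73 and 4.84 across Flox replicates 1 to 5. Here CKO replicates 2 and 3 were highest, the 2 CKO libraries that lay within the Flox range for Sgms1 (log2 fold change 0.36 ± 0.15 SE, limma adjusted p = 0.293). Without CKO replicate 2 the log2 fold change of Sgms2 was 0.24.

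Sphingomyelinases free ceramide from sphingomyelin. Smpd3, the neutral sphingomyelinase, was at 6.34, 6.95, 7.15, 8.72 and 8.82 FPKM across CKO replicates 1 to 5 and 10.0, 10.7, 8.96, 7.98 and 7.99 across Flox replicates 1 to 5. The 3 lowest values were CKO replicates 1, 2 and 3, and CKO replicates 4 and 5 lay in the Flox range (log2 fold change -0.24 ± 0.10 SE, limma adjusted p = 0.320). Smpd1, the acid sphingomyelinase of the lysosome and of lamellar granules, was at 26.1 to 33.0 FPKM across CKO and 25.3 to 31.4 across Flox with a log2 fold change of 0.021 ± 0.075 SE. Ugcg, the glucosylceramide synthase, was at 51.3, 49.7, 50.4, 46.5 and 50.1 FPKM across CKO replicates 1 to 5 and 50.7, 47.0, 48.8, 52.7 and 52.6 across Flox replicates 1 to 5. These values spanned 1.13-fold over all 10 libraries, the narrowest span of the 36 genes, and the 95% confidence interval of the log2 fold change was -0.13 to 0.084. The 6 headgroup genes together summed to 120.5 ± 4.60 FPKM for CKO against 119.5 ± 4.22 for Flox.

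**Figure D3:**
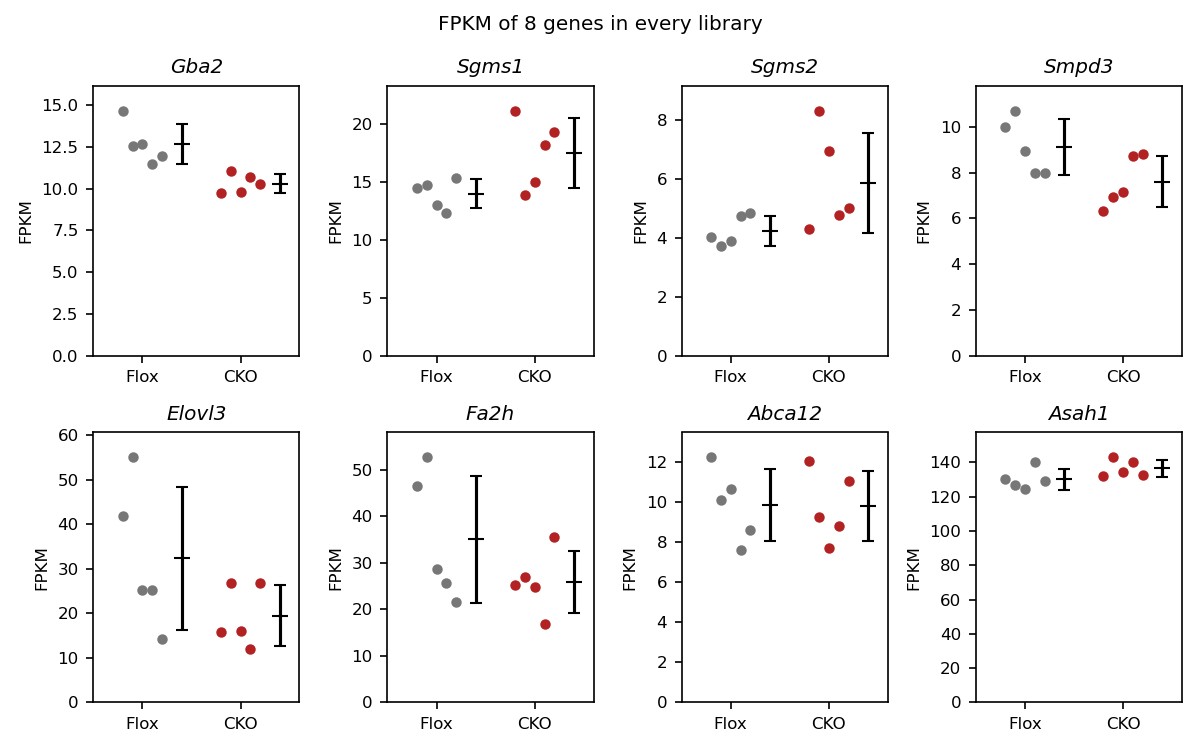
FPKM (vertical axes, from 0) of 8 genes in the 5 Flox and 5 CKO libraries, 1 point per library, with the mean and SD beside the points. The groups separate for Gba2 only, and the 2 highest points of Elovl3 and Fa2h are Flox libraries.

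Ceramidases release sphingosine. Asah1, the acid ceramidase, was at 132, 143, 134, 140.0 and 133 FPKM across CKO replicates 1 to 5 and 130.2, 127, 125, 140.2 and 129 across Flox replicates 1 to 5. The groups overlapped and the highest and lowest libraries differed 1.15-fold. The log2 fold change was 0.068 ± 0.047 SE with a 95% confidence interval of -0.036 to 0.17. Acer1, the alkaline ceramidase of differentiated keratinocytes and sebocytes, was at 9.86 to 15.3 FPKM across CKO and 11.4 to 20.9 across Flox and highest in Flox replicates 1 and 2 (log2 fold change -0.24 ± 0.17 SE). The acid lipase family genes are active in the outermost living layers. Lipm was at 20.2, 10.4, 8.35, 15.9 and 15.9 FPKM across CKO replicates 1 to 5 and 16.4, 19.4, 13.8, 12.3 and 11.7 across Flox replicates 1 to 5, Lipk at 2.07 to 5.15 FPKM across CKO and 2.73 to 4.32 across Flox and Lipn at 1.58 to 3.54 FPKM across CKO and 2.36 to 3.75 across Flox. CKO replicate 3 was the lowest of 10 for all 3 genes, and their log2 fold changes were -0.091 ± 0.22 SE, 0.0045 ± 0.18 SE and -0.053 ± 0.16 SE. No source used here says to which gene reads common to related genes were given. The split among these 3 is uncertain where they share reads, which was not examined. Sult2b1, the cholesterol sulfotransferase of the cornified layer, was at 34.0 to 46.5 FPKM across CKO and 30.9 to 51.7 across Flox (log2 fold change -0.012 ± 0.14 SE).

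Across libraries the 36 genes showed 2 patterns of variation, both described after the values were seen. For 14 genes (38.9%) Flox replicates 1 and 2 were the 2 highest of the 10 libraries, which held for 3.81% of all genes tested. These were Sptlc1, Sptlc3, Degs2, Cers4, Elovl3, Elovl4, Elovl6, Elovl7, Fads6, Slc27a4, Fa2h, Cyp4f39, Acer1 and Smpd3. The same 2 libraries were highest for 16 of 89 tested further genes of the pathway, described below, so the pattern is not particular to the 36. A rank of this kind itself lowers the log2 fold change, and all 14 were negative, against 11 of the other 22. The sum of sebaceous gland markers was highest in the same 2 libraries. The 10 markers, none of them among the 36 genes, summed to 302, 304, 245, 246 and 306 FPKM across CKO replicates 1 to 5 and 392, 473, 314, 299 and 239.9 across Flox replicates 1 to 5. Of these markers 8 were tested, all 8 were negative, the median log2 fold change being -0.32, and 0 passed limma (1 at an unadjusted p under 0.05). Over all genes tested, 60.5% were negative and 10.3% were lower at that threshold. The lowest p were those of Dgat2l6, at 5.36 ± 2.36 FPKM for CKO against 9.09 ± 3.61 for Flox, Krt79, at 43.5 ± 10.0 FPKM for CKO against 70.9 ± 33.9 for Flox, and Soat1, at 19.2 ± 1.94 FPKM for CKO against 21.0 ± 1.08 for Flox. Of the 10 single markers, 5 had Flox replicates 1 and 2 as their 2 highest libraries, and 5 did not (Soat1, Mgst1, Acsbg1, Mc5r and Plin5). Mgst1 weighed most in the sum, at 148 ± 11.8 FPKM for CKO against 163 ± 28.6 for Flox. No marker of the list was at 0 in any library.

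A fit with the sebaceous marker score of each library as a covariate was chosen after the values were seen. The score is highest in Flox replicates 1 and 2, so a smaller fold change of the 14 genes follows from how they were picked, and their values are given as a description. The log2 fold change of Elovl4 was -0.0060, that of Fa2h -0.0043, that of Cers4 -0.0054, that of Sptlc3 -0.0096 and that of Elovl3 -0.13. Elovl6, at 0.13, and Cyp4f39, at 0.084, changed sign. Smpd3, at -0.16, Gba2, at -0.24, Sgms1, at 0.33, and Sgms2, at 0.28, kept their sign. In that fit 17 of the 36 genes were negative, with a median of 0.027, against -0.032 over all genes tested. Without Flox replicates 1 and 2 the median was 0.035 over 35 genes, Fads6 having dropped below the filter. Over all genes tested it was -0.031.

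A second pattern followed the markers of suprabasal keratinocytes. Those 11 markers summed to 4454, 2600.2, 2538, 3818 and 3969 FPKM across CKO replicates 1 to 5 and 3946, 4081, 3546, 2760.0 and 2856 across Flox replicates 1 to 5, so that CKO replicates 1, 4 and 5 and Flox replicates 1 and 2 were the 5 highest. At least 4 of these 5 libraries were among the 5 highest for 17 of the 36 genes (47.2%), against 15.5% of all genes tested. All 5 were shared by Cers3, Smpd1, Lipk and Lipm, and 4 by genes such as Abca12, Aloxe3, Cyp4f39 and Abhd5. Flox replicates 1 and 2 enter both patterns, and 7 genes are in both (Elovl4, Elovl6, Elovl7, Sptlc3, Smpd3, Acer1 and Cyp4f39). The suprabasal list had a median log2 fold change of -0.036 over 11 tested genes, 0 at an unadjusted p under 0.05 in limma, and none was at 0 in any library. Its genes of lowest p were Calml3, at 39.2 ± 9.55 FPKM for CKO against 45.0 ± 9.26 for Flox, Lor, at 124 ± 42.9 FPKM for CKO against 102 ± 21.8 for Flox, and Krt10, at 693 ± 286 FPKM for CKO against 549 ± 101 for Flox. The 6 basal keratinocyte markers summed to 4760, 4210, 3782, 5101 and 4442 FPKM across CKO replicates 1 to 5. Across Flox replicates 1 to 5 they summed to 4727, 5224, 4467, 3710 and 4299 FPKM. Flox replicates 1 and 2 and CKO replicates 1 and 4 were the highest libraries of this sum, so high values in them were not particular to the suprabasal sum. Krt14 weighed most in the basal sum, at 3514 ± 356 FPKM for CKO against 3562 ± 464 for Flox. The part of these marker lists in the values of the barrier lipid genes was not tested.

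**Figure D4:**
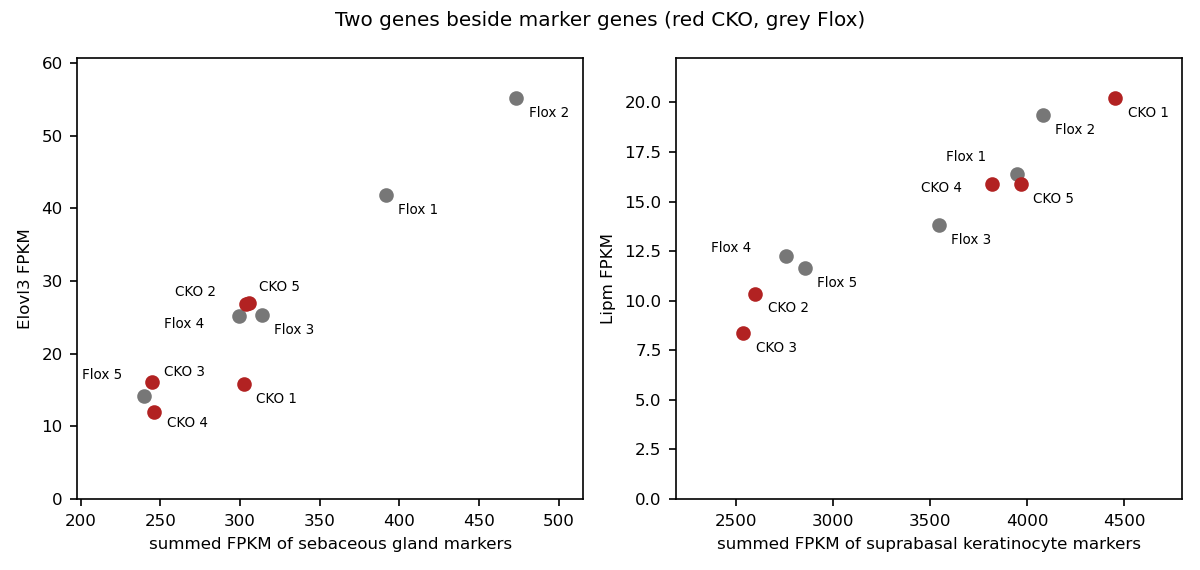
Elovl3 FPKM beside the summed FPKM of 10 sebaceous gland markers (left) and Lipm FPKM beside that of 11 suprabasal keratinocyte markers (right), 1 point per library, red for CKO and grey for Flox. Flox replicates 1 and 2 are highest on both axes at the left, and at the right CKO replicate 1 is highest and CKO replicate 3 lowest on both axes.

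**Figure D5:**
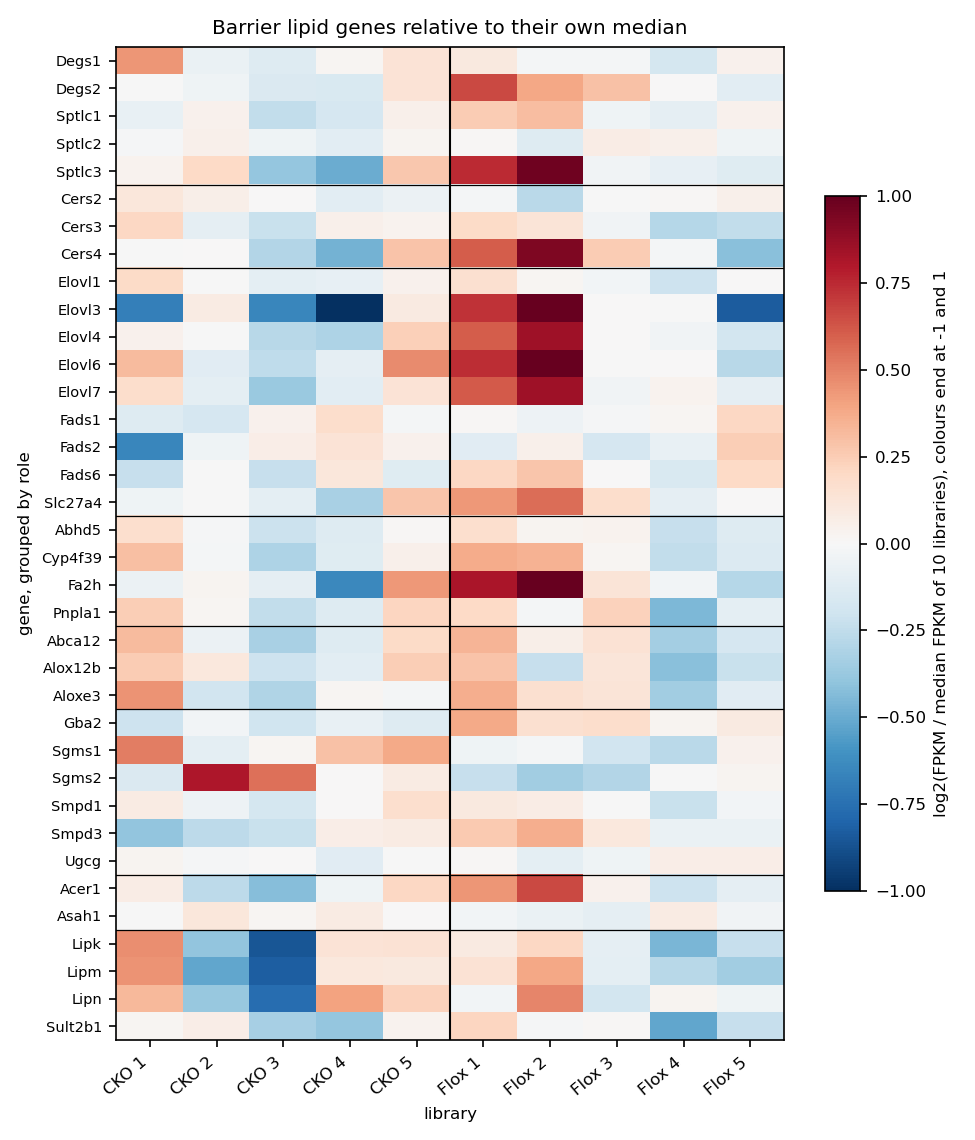
Each gene (rows, grouped by role in the order of the text) in each library (columns), as the log2 ratio of its FPKM to its median over the 10 libraries, with colours ending at -1 and 1. Flox replicates 1 and 2 are red for the elongases other than Elovl1 and for Fa2h, Cers4 and Sptlc3, and CKO replicate 3 is blue for the 3 acid lipase genes.

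Markers of other cell types of skin were summed in the same way. Adipocyte markers, 8 genes, summed to 562 to 918 FPKM across CKO and 533 to 973 across Flox, with Plin1 at 7.97 ± 1.73 FPKM for CKO against 10.5 ± 1.69 for Flox, Adipoq at 21.6 ± 2.22 FPKM for CKO against 26.8 ± 4.82 for Flox and Lep at 2.45 ± 0.854 FPKM for CKO against 3.86 ± 1.41 for Flox as the genes of lowest p. Of the 8, 3 were positive and 5 negative, with a median log2 fold change of -0.045. Macrophage markers, 8 genes, summed to 1956 to 2395 FPKM across CKO and 1920 to 2228 across Flox, and their genes of lowest p were Adgre1, at 33.3 ± 4.77 FPKM for CKO against 47.3 ± 6.26 for Flox, C1qc, at 492 ± 33.9 FPKM for CKO against 457 ± 27.3 for Flox, and C1qa, at 508 ± 58.5 FPKM for CKO against 482 ± 28.7 for Flox. Of these 8, 5 were positive and 3 negative, with a median log2 fold change of 0.028. Skeletal muscle markers, 12 genes, summed to 369 to 1407 FPKM across CKO and 238 to 434 across Flox, highest in CKO replicate 1. Of these, 11 were tested, all 11 were positive and 0 passed limma (10 at an unadjusted p under 0.05). Over all genes tested, 60.5% were negative and 4.78% were higher at that threshold. The muscle genes of lowest p were Myh1, at 49.2 ± 44.1 FPKM for CKO against 14.7 ± 3.51 for Flox, Myh2, at 3.15 ± 1.86 FPKM for CKO against 1.32 ± 0.222 for Flox, and Acta1, at 141 ± 84.3 FPKM for CKO against 62.3 ± 20.4 for Flox. Basal keratinocyte markers, 6 genes, summed to 3782 to 5101 FPKM across CKO and 3710 to 5224 across Flox, with Col17a1, Krt15 and Itga6 of lowest p. None of these markers was at 0 in any library. The part of these lists in the barrier lipid values was not tested.

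Further genes of the pathway, 93 in the table and 89 tested, gave 1 call, Mboat1. Over all genes tested 0.106% passed. These lists too were chosen with earlier results of these data known, so the call is given for that gene only. Of the 89, 5 (5.62%) were higher and 12 (13.5%) lower at an unadjusted p under 0.05, against 4.78% and 10.3% of all genes tested. CKO and Flox were without overlap for 5 of them (5.62%), against 4.23% over all genes, and the median log2 fold change of the 89 was -0.031. Mboat1, an acyltransferase of lysophospholipids, was lower in CKO, at 6.87 ± 0.631 FPKM for CKO against 9.41 ± 0.324 for Flox (log2 fold change -0.41 ± 0.060 SE, limma adjusted p = 0.0463). With CKO replicate 1 left out 1 of the further genes passed as lower, and with any 1 of the other 9 libraries left out 0 did. It shares its list, 14 genes of the acylceramide route and lipid envelope, with Aldh3a2, a fatty aldehyde dehydrogenase whose loss causes ichthyosis in humans, at 19.2 ± 1.07 FPKM for CKO against 21.9 ± 1.07 for Flox, and Ephx3, an epidermal epoxide hydrolase, at 11.2 ± 0.603 FPKM for CKO against 13.5 ± 1.69 for Flox. The list had 0 genes higher and 3 lower at an unadjusted p under 0.05.

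Among 25 tested sphingolipid genes outside the 36, 0 passed limma, and 2 were higher and 2 lower at an unadjusted p under 0.05. Over all genes tested, 4.78% were higher and 10.3% lower at that threshold. Sphk1, which makes sphingosine 1-phosphate, was at 41.8, 26.1, 26.5, 23.6 and 33.5 FPKM across CKO replicates 1 to 5 and 20.5, 13.7, 19.9, 19.4 and 15.3 across Flox replicates 1 to 5. Every CKO value lay above every Flox value, with a log2 fold change of 0.72 ± 0.16 SE (limma adjusted p = 0.109). Cers5, a synthase of shorter chain ceramides, was at 29.4 ± 1.04 FPKM for CKO against 35.4 ± 4.21 for Flox. Ormdl1, an inhibitor of serine palmitoyltransferase, was at 14.5, 14.2, 14.7, 14.3 and 15.0 FPKM across CKO replicates 1 to 5 and 15.2, 17.2, 15.9, 16.0 and 16.0 across Flox replicates 1 to 5, without overlap (log2 fold change -0.14 ± 0.042 SE, limma adjusted p = 0.200).

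Of 21 tested genes of fatty acid synthesis and elongation, 0 passed, and 0 were higher and 3 lower at an unadjusted p under 0.05. The shares over all genes tested were 4.78% higher and 10.3% lower. Hacd4, a dehydratase of the elongation cycle, was at 11.1, 15.2, 17.6, 17.3 and 16.8 FPKM across CKO replicates 1 to 5 and 22.1, 21.2, 22.0, 21.9 and 26.7 across Flox replicates 1 to 5. All CKO values lay below all Flox values (log2 fold change -0.53 ± 0.12 SE, limma adjusted p = 0.102). Acsl5, an acyl-CoA synthetase, was at 47.1 ± 1.27 FPKM for CKO against 55.0 ± 5.31 for Flox, also without overlap, and Fads3, a desaturase of sphingoid bases, at 7.17 ± 0.629 FPKM for CKO against 8.24 ± 0.414 for Flox.

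Cholesterol synthesis genes, 18 in number, had a median log2 fold change of -0.14, with 16 negative and 0 that passed limma. At an unadjusted p under 0.05, 0 were higher and 3 lower. Of all genes tested 60.5% were negative, and 4.78% were higher and 10.3% lower at that threshold. Idi1, the isopentenyl diphosphate isomerase, was at 78.5, 68.5, 57.6, 71.9 and 73.0 FPKM across CKO replicates 1 to 5 and 86.8, 115, 98.4, 73.2 and 76.3 across Flox replicates 1 to 5. The 3 highest values were Flox values, and the log2 fold change was -0.35 ± 0.13 SE. Msmo1, a sterol demethylase, was at 85.6 ± 14.3 FPKM for CKO against 118 ± 30.1 for Flox and Sc5d, a sterol desaturase, at 17.6 ± 2.87 FPKM for CKO against 21.0 ± 2.12 for Flox. Flox replicates 1 and 2 were the 2 highest libraries for 4 of these 18 genes, against 3.81% of all genes tested.

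Among 11 tested regulators of barrier lipid genes 0 passed, and 3 were higher and 1 lower at an unadjusted p under 0.05. The background over all genes tested was 4.78% higher and 10.3% lower. Pparg, a nuclear receptor of sebocytes and adipocytes, was at 8.99, 9.85, 8.75, 8.68 and 11.9 FPKM across CKO replicates 1 to 5 and 12.9, 14.7, 13.2, 11.3 and 12.4 across Flox replicates 1 to 5. CKO replicate 5 lay above Flox replicate 4, and the log2 fold change was -0.39 ± 0.090 SE (limma adjusted p = 0.117). Grhl3, a transcription factor of barrier formation, was at 13.9 ± 2.15 FPKM for CKO against 10.5 ± 0.986 for Flox (log2 fold change 0.37 ± 0.098 SE), and Klf4, another such factor, at 104 ± 26.6 FPKM for CKO against 76.4 ± 4.18 for Flox (log2 fold change 0.40 ± 0.15 SE).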

How the data were processed

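Poly(A) RNA of mouse skin was read as single-end DNA nanoball libraries, per the labels' protocols, in 5 CKO and 5 Flox samples. The authors deposited 1 table of FPKM per gene and sample, per the file headers, and HISAT is the aligner that the submitters' processing notes name. Counter, build and annotation are not given in those notes, the labels or the header, and with values rounded to 2 decimals no read counts were recovered, so the depth is unknown.

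The comparison was fitted with limma-trend (limma 3.58.1, R 4.3.3) on log2(FPKM + 1), after a filter of 1 FPKM or more in 5 or more libraries, two-sided, with Benjamini-Hochberg adjustment over all 13186 genes and a threshold of 0.05. Errors of group means are SD with n = 5 per group, and those of log2 fold changes are SE from the fit. The code was tested on simulated data. Alternatives were a pseudocount of 0.1, no filter, array quality weights, quantile normalization, equal library totals, a replicate block and leaving out each library. Genes and lists were chosen with earlier results of these data known. Values in every library are given for barrier lipid genes at an unadjusted p under 0.05 and for 14 genes named in the plan, and up to 3 genes of lowest p are named per list; Cers4, Elovl6, Lipm, Idi1, Hacd4, Ormdl1, Sphk1 and Pparg were added by library after their values were seen. Same-numbered CKO and Flox libraries did not deviate together.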

Additional observations from a re-analysis of the deposited data

Results flagged for a closer look

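Single libraries stood apart from the other 4 of their group, by Dixon's test at 95%, for 4 of the 72 gene and group combinations. Chance flags about 1 in 20 groups. Cers2 was at 45.6 FPKM in Flox replicate 2, below the 54.1 to 56.7 FPKM of the other Flox libraries. Lipn was at 3.75 FPKM in the same library, above the 2.36 to 2.73 FPKM of the others. Fads1 was at 20.1 FPKM in Flox replicate 5, against 16.8 to 17.6 FPKM. Fads2 was at 4.25 FPKM in CKO replicate 1, below the 6.46 to 7.32 FPKM of the other CKO libraries.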

How the results depend on the processing

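No barrier lipid gene passed over all genes under any alternative run, with a lowest adjusted p of 0.0922 (Gba2, limma with array quality weights). Over all genes tested, where 6 passed as higher and 8 as lower, 1 and 2 passed with no filter, 30 and 60 with array quality weights, 2 as higher with equal library totals, and 0 and 0 with the replicate block (1911 at an unadjusted p under 0.05), without both Flox replicates 1 and 2 (1206) and with the sebaceous score as covariate (1893). The last 2 alternatives were chosen after seeing the data. Leaving out 1 library gave 0 to 11 higher and 0 to 15 lower.

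Barrier lipid genes at an unadjusted p under 0.05, 2 higher and 2 lower, became 6 lower with array quality weights, 1 lower with quantile normalization, 1 higher with equal library totals, 1 higher with the replicate block, and 1 and 1 both without Flox replicates 1 and 2 and with the sebaceous covariate. With array quality weights this was 8 of the 36 genes in either direction, above the 16.3% of all genes tested in that fit. Leaving out 1 library gave 1 to 2 higher and 1 to 5 lower. The further pathway genes, with 1 lower, had 2 with array quality weights and 0 with no filter, equal library totals, the replicate block, the sebaceous covariate or without Flox replicates 1 and 2, and 0 to 1 with 1 library left out. The log2 ratio of the summed uptake, elongase and desaturase genes was -0.27, -0.34 to -0.13 with 1 library left out and 0.025 without Flox replicates 1 and 2. Same-numbered libraries had deviations that correlated at r = -0.210 to 0.212, over 0.1 in 2 of 5 pairs, so the numbers were not taken to pair the samples.

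Some genes changed sign, most of them with a log2 fold change near 0 (Elovl6, at -0.25, was not). With array quality weights these were Cers3 at -0.033, Elovl1 at -0.031, Fads1 at 0.011, Fads2 at 0.073, Lipk at -0.085, Pnpla1 at -0.067 and Smpd1 at -0.0092. Lipk was at -0.0054 with a pseudocount of 0.1 and -0.0090 with equal library totals, and Abca12 at 0.021 with quantile normalization. With the sebaceous covariate Abca12 was at 0.12, Abhd5 at 0.076, Aloxe3 at 0.075, Cyp4f39 at 0.084, Elovl6 at 0.13, Lipm at 0.12, Lipn at 0.051 and Sult2b1 at 0.13. The causes were not tested. With 1 library left out, Abca12 ranged from -0.086 to 0.069, Abhd5 from -0.059 to 0.037, Aloxe3 from -0.14 to 0.032, Cers2 from -0.0075 to 0.074, Cers3 from -0.015 to 0.097, Elovl1 from -0.026 to 0.066, Fads2 from -0.11 to 0.053, Lipk from -0.11 to 0.14, Lipm from -0.23 to 0.068, Lipn from -0.13 to 0.072, Pnpla1 from -0.050 to 0.094, Smpd1 from -0.028 to 0.065, Sptlc2 from -0.039 to 0.012, Sult2b1 from -0.11 to 0.068 and Ugcg from -0.045 to 0.0020.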

Other observations

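Several of the 36 genes lie next to each other in the RefSeq annotation of GRCm38.p6, with 0 protein-coding genes between them. These are Aloxe3 and Alox12b on chromosome 11, Fads2 and Fads1 on chromosome 19, and Lipk, Lipn and Lipm, also on chromosome 19. Of the summed FPKM of the 3 lipase genes, Lipm took 67.6% to 70.4% across CKO and 66.8% to 71.3% across Flox. CKO replicate 1 held the lowest Fads2, at 4.25 FPKM, and a Fads1 of 15.9 FPKM within the CKO range of 15.6 to 19.7 FPKM. A median over the 36 genes of the log2 ratio to each gene's own median put CKO replicate 3 lowest, at -0.22, and Flox replicate 1 highest, at 0.21.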
